A study of Mus musculus with 7 samples.

Results

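The genes described here are 10 secreted signals of the TGF-beta superfamily: the TGF-betas Tgfb1, Tgfb2 and Tgfb3, the activin subunits Inhba and Inhbb, the bone morphogenetic proteins Bmp2 and Bmp4, the related ligand Gdf10, and the secreted antagonists Fst and Grem1. They were taken by gene name from a table of 25322 genes, in which all 10 were found. Cells expressing tdTomato, a red fluorescent reporter, were sorted from the skin of mice at day 36, and their RNA was sequenced in bulk in 7 libraries. The 3 controls are labelled as carrying floxed Zfp750 on 1 allele in 2 cases and as wild type for it in 1, and the 4 knockouts (Zfp750_KO) as floxed on both alleles. Every library carried Lrig1-CreER or Lrig1-CreERT2 as +/-, a tamoxifen-inducible recombinase driven by a stem cell gene of the upper hair follicle, and the Rosa26 allele as +/- except in 1 knockout labelled -/-. 4-hydroxytamoxifen was given to pups on days 4 to 7 or days 5 to 8 of age. The libraries are called by the short names of the table's columns: 4F, 4M and 7F among controls, and 1M, 2M, 3F and 6F among knockouts. Which column is the wild-type control or the Rosa26 -/- knockout is not stated, nor whether the libraries are from separate animals. The p-values therefore measure only how far these libraries spread, and that spread may be technical.

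Ligands of this superfamily are dimers that bring together type I and type II receptor kinases, which phosphorylate SMAD proteins that then act on gene transcription. TGF-betas and activins signal mainly through SMAD2 and SMAD3, and BMPs through SMAD1, SMAD5 and SMAD9. TGF-betas are secreted in a latent form held in the matrix, while activins and BMPs are restrained by secreted binding proteins such as follistatin and gremlin. In skin these signals are known for their roles in fibroblast activation, wound repair and the hair cycle.

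The libraries differed in cell content within both groups, and this touches every result below. The macrophage score, the log2 levels of 21 macrophage or monocyte genes averaged, was 5.82 in control 4F and 7.04 and 6.72 in Zfp750_KO 1M and 2M, against 9.75 and 9.95 in control 4M and 7F and 10.8 and 10.5 in Zfp750_KO 3F and 6F. The fibroblast score, over 18 genes, was 14.2 (4F), 13.8 (4M) and 13.4 (7F) among controls and 14.5 (1M), 14.4 (2M), 12.2 (3F) and 12.4 (6F) among knockouts. Summed keratinocyte markers stood at 416 to 3559 per M of the column total in controls and at 424 to 3304 in Zfp750_KO, while summed fibroblast markers stood at 97491 to 201131 and at 21194 to 137390. Keratin RNA was thus a small part of each library. In bulk samples fewer cells of a type and less RNA per cell cannot be told apart. Totals were 9.09 to 17.1 M reads per library, as recovered from the spacing of the low values. Zfp750 itself was at 335 (4F), 51.2 (4M) and 61.9 (7F) among controls and 48.9 (1M), 45.4 (2M), 10.1 (3F) and 29.6 (6F) among knockouts, so the targeted gene was lower in every knockout than in any control, by little between 1M and control 4M. Which stretch of the gene is floxed is not stated.

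The groups were first compared with genotype as the only term of the model, in limma on log2(value + 11.9) over 18141 genes. None of the 10 signals passed an adjusted p of 0.05, and neither did any other gene, so that 0% of all genes were called. At an unadjusted p under 0.05 there was 1 of the 10, Gdf10, where 5.83% of all genes reached that level. None of the 10 separated the groups: in each, at least 1 knockout library lay within the range of the controls or beyond it on the other side, where 7.1% of all genes tested separated the groups without overlap. A second limma fit held the macrophage score as a covariate. In that fit Inhbb and Grem1 rose and Tgfb2, Bmp4 and Gdf10 fell, which makes 5 of 10 called in either direction, where 3.89% of all genes were called (1.56% higher and 2.33% lower). The median log2 difference of the 10 was 0.27, against 0.020 over all genes tested. The 10 genes and the second fit were chosen with earlier results of these data known, so these shares are not a test of the family. The second fit assumes that a gene follows the macrophage score in the same way in both groups, and the values below show where the libraries depart from that. Without control 4F the remaining controls have scores of 9.75 and 9.95. The slope then comes almost wholly from the knockouts, and no control matches 1M and 2M, so a call kept or gained without 4F rests on that assumption.

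**Figure D1:**
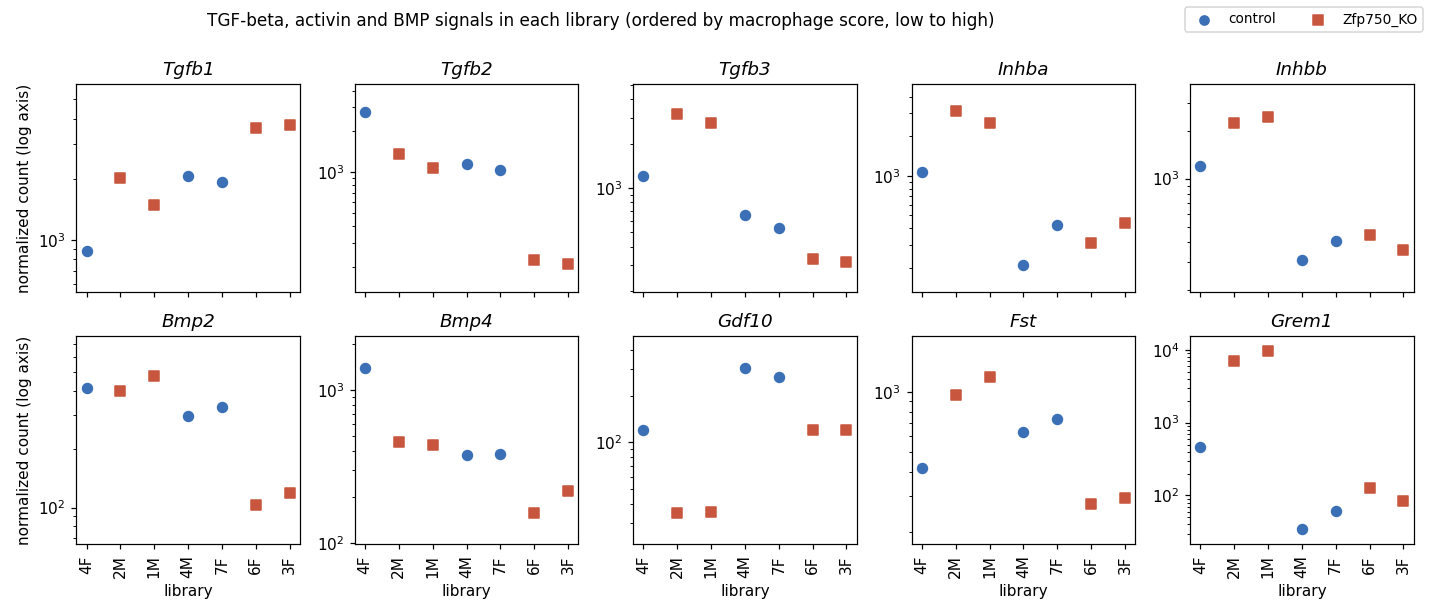
Normalized counts of the 10 genes on log axes, 1 point per library, with controls as blue circles and Zfp750_KO as red squares, ordered along each horizontal axis from the lowest macrophage score (control 4F, 5.82) to the highest (Zfp750_KO 3F, 10.8). Grem1, Inhba, Inhbb, Tgfb3 and Fst are highest in Zfp750_KO 1M and 2M, and Gdf10 is lowest there.

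**Figure D2:**
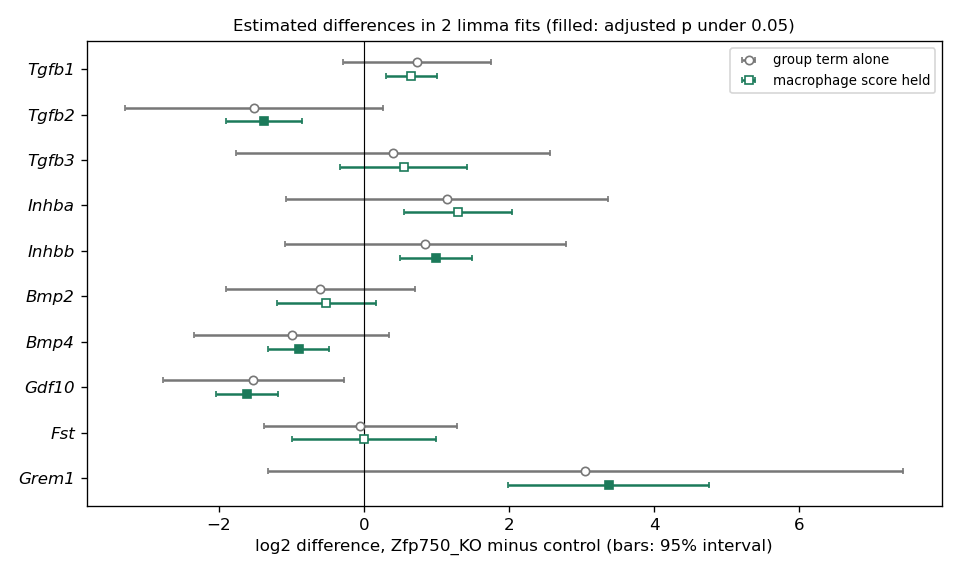
Log2 differences between Zfp750_KO and control (horizontal axis) for each gene, with 95% intervals, from limma with the group term alone (grey circles) and with the macrophage score held (green squares). Filled symbols, for Tgfb2, Inhbb, Bmp4, Gdf10 and Grem1, mark an adjusted p under 0.05, and no grey symbol is filled.

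Grem1 (ENSMUSG00000074934, chromosome 2) encodes gremlin, a secreted antagonist that binds BMP2 and BMP4, and it varied more than any other of the 10. Its normalized counts were 457 (4F), 34.1 (4M) and 61.9 (7F) among controls and 9565 (1M), 7035 (2M), 83.4 (3F) and 125 (6F) among knockouts. Zfp750_KO 1M and 2M stood far above every other library, and 3F and 6F lay above controls 4M and 7F but below control 4F. The mean of 1M and 2M was 18.2 times the level of control 4F, the 1 control with a low macrophage score, and the mean of 3F and 6F was 2.17 times that of controls 4M and 7F. Over the 7 libraries the highest value was 280.2 times the lowest, which rested on 26 reads. Grem1 rose by a log2 difference of 3.38 ± 0.61 (SE) with the macrophage score held, at an adjusted p of 0.0190, and with the group term alone the difference was 3.05 ± 1.87 (adjusted p = 1.0). The rise was 2.31 without control 4F (adjusted p = 0.000901), and it did not pass without control 4M (adjusted p = 0.0863) or without Zfp750_KO 2M (adjusted p = 0.0573), or with robust moderation (adjusted p = 0.0717). Summed over 10 genes, dermal papilla markers were at 718 to 872 per M in controls and at 971 to 1550 in Zfp750_KO, but the list did not move as one. With the macrophage score held, Crabp1 and Trps1 rose and the other 7 tested did not pass, and Vcan and Trps1 made up most of the sum. Hhip was lowest in the libraries where Grem1 was highest, at 64.5 (4F), 40.3 (4M) and 56.5 (7F) per M among controls and 7.91 (1M), 9.01 (2M), 33.8 (3F) and 51.9 (6F) among knockouts. Sox2 was at 0 in controls 4M and 7F and under 1 per M in the other libraries. The part of these markers in the Grem1 result was not tested.

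Gdf10 (ENSMUSG00000021943, chromosome 14), also known as BMP3b, is a ligand of the BMP3 subgroup. Its normalized counts were 120.001 (4F), 306 (4M) and 268 (7F) among controls and 35.3 (1M), 34.8 (2M), 120.6 (3F) and 120.5 (6F) among knockouts. Zfp750_KO 1M and 2M were the lowest libraries, and 3F and 6F were level with control 4F and below the other 2 controls. The mean was 231 ± 98.2 over controls (SD, n = 3) and 77.8 ± 49.4 over knockouts (SD, n = 4). Gdf10 fell by 1.62 ± 0.19 (log2, SE) with the macrophage score held, at an adjusted p of 0.00331, and with the group term alone the difference was -1.53 ± 0.53 (adjusted p = 0.684). It passed the threshold in all 7 fits without 1 library, at log2 differences of -1.73 to -1.50, and in the fit with the fibroblast score in place of the macrophage score, at -1.84 (adjusted p = 0.0147). Its level was low, at 34 to 238 reads per library. Muscle, fat and Schwann cell markers, summed over 11 genes, had a like order of libraries, at 153 (4F), 714 (4M) and 543 (7F) per M among controls and 93.4 (1M), 107 (2M), 206 (3F) and 209 (6F) among knockouts. Their part in the Gdf10 result was not tested.

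Inhba (ENSMUSG00000041324, chromosome 13) and Inhbb (ENSMUSG00000037035, chromosome 1) encode the beta subunits that pair to form activin A, activin B and the mixed dimer activin AB. Inhba had normalized counts of 1069.95 (4F), 209 (4M) and 421 (7F) among controls and 2543 (1M), 3118 (2M), 435 (3F) and 306 (6F) among knockouts. Inhbb had 1203 (4F), 309.8 (4M) and 404 (7F) among controls and 2449.5 (1M), 2249 (2M), 356 (3F) and 440.1 (6F) among knockouts. In both genes 1M and 2M were highest, control 4F came next, and the 4 libraries with high macrophage scores lay together with no order by genotype. Zfp750_KO 1M and 2M averaged 2.65 times control 4F for Inhba and 1.95 times for Inhbb, whereas 3F and 6F averaged 1.18 and 1.12 times controls 4M and 7F. Inhbb rose by 0.99 ± 0.22 (log2, SE) with the macrophage score held, at an adjusted p of 0.0413. It kept the call in 2 of the 7 fits without 1 library, those without control 4F and without control 7F. Inhba had a difference of 1.30 ± 0.33 and missed the threshold (adjusted p = 0.0666). It passed without control 7F (adjusted p = 0.0305) and without Zfp750_KO 6F (adjusted p = 0.0465).

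Fst (ENSMUSG00000021765, chromosome 13) encodes follistatin, which binds activins and keeps them from their receptors. Its normalized counts were 418 (4F), 631 (4M) and 731 (7F) among controls and 1193 (1M), 971 (2M), 295 (3F) and 276 (6F) among knockouts. The knockouts lay on both sides of the controls, 1M and 2M above all 3 and 3F and 6F below all 3. The mean was 594 ± 160 over controls (SD, n = 3) and 684 ± 468 over knockouts (SD, n = 4), and the log2 difference was -0.00014 ± 0.44 (SE) with the macrophage score held, with a 95% interval of -0.999 to 0.999. Without control 4F it was -0.81 and passed (adjusted p = 0.0168).

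Promoter sequences are shown for Grem1 and Gdf10, the members with the largest difference in each direction in both fits over 7 libraries, and for the activin subunit genes, which moved together over the libraries. RefSeq start sites on GRCm38.p6 were found for 7 of the 10 genes, and not for Tgfb3, Bmp2 and Fst. Each sequence holds the 250 bases before the start site, on the strand of the gene. Capitals mark GTCTG or its reverse complement CAGAC, the short SMAD binding element. The windows are chr2:113758649-113758898 on the minus strand for Grem1, chr14:33923337-33923586 on the plus strand for Gdf10, chr13:16011601-16011850 on the plus strand for Inhba and chr1:119422249-119422498 on the minus strand for Inhbb.
Grem1: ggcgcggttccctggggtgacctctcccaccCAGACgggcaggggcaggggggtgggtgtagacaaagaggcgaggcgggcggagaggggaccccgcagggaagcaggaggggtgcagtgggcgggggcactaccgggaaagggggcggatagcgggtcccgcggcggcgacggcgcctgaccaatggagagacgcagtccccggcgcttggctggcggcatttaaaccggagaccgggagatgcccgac
Gdf10: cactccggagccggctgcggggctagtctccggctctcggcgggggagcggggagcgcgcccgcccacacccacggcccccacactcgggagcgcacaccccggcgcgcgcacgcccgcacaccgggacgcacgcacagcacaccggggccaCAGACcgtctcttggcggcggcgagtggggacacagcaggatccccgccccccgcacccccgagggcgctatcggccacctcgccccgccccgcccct
Inhba: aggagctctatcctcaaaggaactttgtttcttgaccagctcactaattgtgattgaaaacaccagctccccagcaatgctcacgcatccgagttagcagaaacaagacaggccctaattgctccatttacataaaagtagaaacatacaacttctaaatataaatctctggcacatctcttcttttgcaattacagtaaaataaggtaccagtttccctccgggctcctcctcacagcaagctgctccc
Inhbb: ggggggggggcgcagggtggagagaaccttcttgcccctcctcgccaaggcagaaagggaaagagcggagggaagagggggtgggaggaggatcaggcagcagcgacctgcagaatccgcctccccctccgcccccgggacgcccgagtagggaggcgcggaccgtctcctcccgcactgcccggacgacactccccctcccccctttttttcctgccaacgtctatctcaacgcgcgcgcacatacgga

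The SMAD element was found 1 time before Grem1 and 1 time before Gdf10, and not in the windows of Inhba and Inhbb. It was present on either strand in 3 of the 7 windows (Grem1, Gdf10 and Tgfb2) and in 42.2% of 32851 promoter windows of the same length. The AP-1 element TGANTCA was in none of the 7 windows and in 6.75% of all. TATAAA on the strand of the gene was found before Tgfb2 and Inhba and in 7.59% of all windows, and the GC box GGGCGG on either strand in 5 of the 7 and in 32.7% of all. The Inhba window held 43.2% G and C and the Gdf10 window 78.8%, against a median of 52.4% over all windows. Of the elements named here, the Inhba window held only TATAAA and the Inhbb window only the GC box. Each of these elements is absent from most windows, so this does not bear on why Inhba and Inhbb RNA moved together. A match describes the letters and not a bound site.

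Tgfb1 (ENSMUSG00000002603, chromosome 7), the TGF-beta of platelets and leukocytes among other cells, had a positive fitted slope on the macrophage score, of 0.28 log2 per unit. Gdf10, at 0.35, was the other of the 10 with a positive slope. Tgfb1 had normalized counts of 876 (4F), 2069 (4M) and 1939 (7F) among controls and 1489 (1M), 2033 (2M), 3724 (3F) and 3612 (6F) among knockouts. The lowest value was that of control 4F, the library with the lowest macrophage score, and the highest values were those of Zfp750_KO 3F and 6F, which had the highest scores. The log2 difference was 0.65 ± 0.16 (SE) with the macrophage score held, and its adjusted p of 0.0561 missed the threshold. Tgfb1 passed without control 4F (adjusted p = 0.0392) and without Zfp750_KO 1M (adjusted p = 0.0437). With the fibroblast score in place of the macrophage score the difference was 0.49 (adjusted p = 0.406).

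Tgfb2 (ENSMUSG00000039239, chromosome 1), known for its part in development and in hair follicle growth and regression, had a negative slope, of -0.51. Its normalized counts were 2783 (4F), 1154 (4M) and 1040.45 (7F) among controls and 1077 (1M), 1368 (2M), 209 (3F) and 225 (6F) among knockouts. Zfp750_KO 3F and 6F were far below every other library, and 1M and 2M were level with controls 4M and 7F and below control 4F. Tgfb2 fell by 1.38 ± 0.23 (log2, SE) with the macrophage score held, at an adjusted p of 0.0142. The call was lost without control 4M (adjusted p = 0.0876), without control 7F (adjusted p = 0.0851) and with the fibroblast score in place of the macrophage score, where the difference was -1.02 (adjusted p = 0.0522).

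Tgfb3 (ENSMUSG00000021253, chromosome 12), the isoform known from palate closure and wound studies, had normalized counts of 1197 (4F), 651 (4M) and 532 (7F) among controls and 2777 (1M), 3160.5 (2M), 314 (3F) and 332 (6F) among knockouts. As for Fst, 1M and 2M lay above all controls and 3F and 6F below all controls. The log2 difference was 0.55 ± 0.39 (SE, adjusted p = 0.535) with the macrophage score held, and it turned to -0.17 without control 4F. With the fibroblast score in place of the macrophage score Tgfb3 passed at 1.02 (adjusted p = 0.0164).

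Bmp4 (ENSMUSG00000021835, chromosome 14), a ligand made in skin by dermal papilla and other mesenchymal cells, had normalized counts of 1405 (4F), 378 (4M) and 380.2 (7F) among controls and 436 (1M), 459 (2M), 218 (3F) and 156 (6F) among knockouts. Control 4F was the highest library by far, and the lowest were Zfp750_KO 3F and 6F. Bmp4 fell by 0.90 ± 0.19 (log2, SE) with the macrophage score held, at an adjusted p of 0.0323. It kept the call without control 4F, at -0.73 (adjusted p = 0.0381), and without Zfp750_KO 3F (adjusted p = 0.0158), and lost it in the other 5 fits without 1 library, with adjusted p-values up to 0.116. With the fibroblast score in place of the macrophage score the difference was -0.72 (adjusted p = 0.429).

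Bmp2 (ENSMUSG00000027358, chromosome 2), which acts through the same receptors as Bmp4, had normalized counts of 414 (4F), 299 (4M) and 329.6 (7F) among controls and 480.3 (1M), 401 (2M), 118 (3F) and 103 (6F) among knockouts. Zfp750_KO 3F and 6F stood below all other libraries, while 1M and 2M were in or above the range of the controls. The log2 difference was -0.52 ± 0.30 (SE, adjusted p = 0.431) with the macrophage score held. It passed only without control 4F among the fits without 1 library, at -1.003 (adjusted p = 0.00968).

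Since composition divided the libraries within each group, the 4 with the higher macrophage scores were also compared alone, controls 4M and 7F with Zfp750_KO 3F and 6F. In these, 8 of the 10 genes separated the groups without overlap, 6 lower in Zfp750_KO (Tgfb2, Tgfb3, Bmp2, Bmp4, Gdf10 and Fst) and 2 higher (Tgfb1 and Grem1), where 54.1% of all genes separated (25.3% lower and 28.8% higher). In limma on these 4 libraries 7 of the 10 passed an adjusted p of 0.05, where 12.1% of the 17214 genes tested were called. Tgfb2 fell by 2.28 ± 0.19 (log2, SE), at an adjusted p of 6.86e-05, Bmp2 by 1.42 ± 0.24, Fst by 1.22 ± 0.19, Gdf10 by 1.18 ± 0.23, Bmp4 by 1.00 ± 0.23 and Tgfb3 by 0.84 ± 0.20, with adjusted p-values of 0.00219 to 0.0168 for the last 5. Gdf10 was thus not the gene that fell most in these libraries. Tgfb1 rose by 0.87 ± 0.17 (adjusted p = 0.00573), and Grem1 had a difference of 0.98 ± 0.34 (adjusted p = 0.0884). Inhba and Inhbb were at 0.29 ± 0.30 and 0.16 ± 0.22, with 95% intervals of -0.37 to 0.94 and -0.32 to 0.63. The fibroblast score was 13.8 and 13.4 in these controls and 12.2 and 12.4 in these knockouts, and the macrophage score 9.75 and 9.95 against 10.8 and 10.5. Both knockouts carry F in the column name, while control 4M carries M and control 7F carries F, letters that may stand for sex. The part of these differences in the result was not tested. With 2 libraries a group the spread rests on 2 residual degrees of freedom and on the pooling over genes. The 10 genes were chosen with earlier results known, and the separation in these libraries was examined after the data were seen.

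To test whether the difference varied with sex, M in a column name was taken to stand for male and F for female. None of the 10 passed this limma interaction test, with adjusted p-values of 0.118 to 0.180, where 0.0165% of all genes were called. The male controls are 1 library, 4M, which is assumed to vary like the others. It had a macrophage score of 9.75, against 7.04 and 6.72 in the male knockouts, so genotype and cell content cannot be told apart among males, nor sex and cell content among knockouts. These p-values therefore do not show whether the difference varied with sex.

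Ratios of a ligand to its antagonist, or of related ligands, were then formed within each library, which removes the scaling of the library. Bmp4 to Grem1 was the 1 ratio of 6 whose groups did not overlap. It was 3.08 (4F), 11.1 (4M) and 6.15 (7F) among controls and 0.0455 (1M), 0.0652 (2M), 2.61 (3F) and 1.25 (6F) among knockouts. The log2 difference was -4.05, lower in 4 of 4 knockouts, with a two-sided exact permutation p of 0.0571, the smallest that 3 against 4 libraries allow, or 0.343 adjusted over 6 ratios. The design cannot reach 0.05. The difference lay between -5.04 and -3.14 over the alternatives tried.

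Inhba to Fst was 2.56 (4F), 0.331 (4M) and 0.575 (7F) among controls and 2.13 (1M), 3.21 (2M), 1.47 (3F) and 1.11 (6F) among knockouts. All 4 knockouts exceeded controls 4M and 7F, and 3 of them lay below control 4F. The log2 difference was 1.19 (two-sided exact permutation p = 0.229). Tgfb2 to Tgfb1 was 3.18 (4F), 0.558 (4M) and 0.537 (7F) among controls and 0.723 (1M), 0.673 (2M), 0.0560 (3F) and 0.0622 (6F) among knockouts, with a log2 difference of -2.24 and an exact permutation p of 0.343. The ratio was far lower in 3F and 6F than in any other library. Inhba to Inhbb stayed between 0.674 and 1.39 in all 7 libraries. Its log2 difference was 0.29, with an exact permutation p of 0.343. Bmp2 to Bmp4 and Tgfb3 to Tgfb1 had log2 differences of 0.40 and -0.33, with exact permutation p-values of 0.514 and 0.914.

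**Figure D3:**
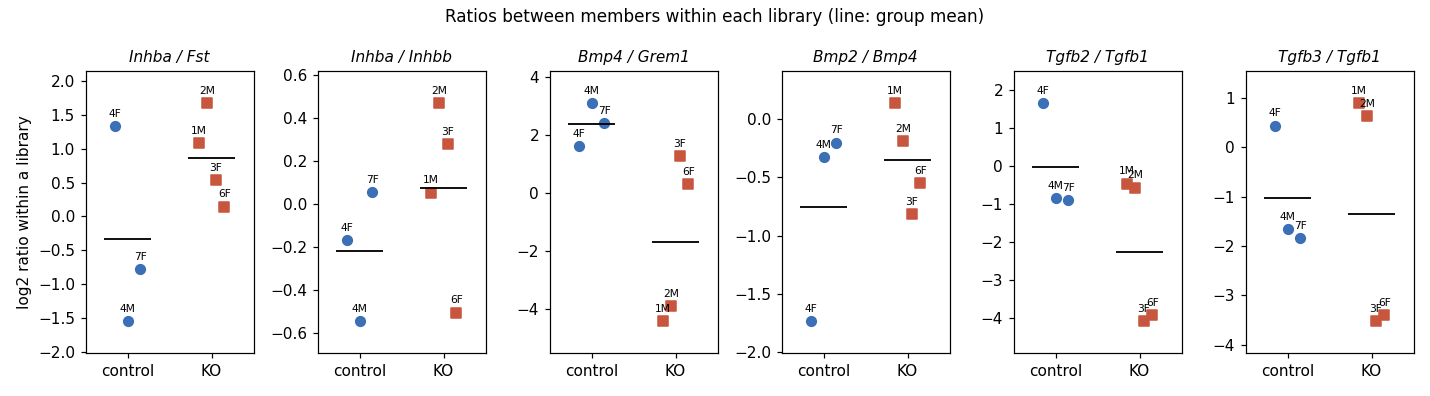
Log2 ratios between 2 of the genes within each library (vertical axis), with controls as blue circles, Zfp750_KO (KO) as red squares, library names beside the points and lines at the group means. Bmp4 to Grem1 is the ratio whose groups do not overlap, with all knockouts below all controls.

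Levels were compared between genes per length, as normalized counts per M of the column total and per kb of exon in the GENCODE M21 annotation. On this scale Tgfb1 had the highest median over the 7 libraries, 34.3, with a range of 13.2 to 68.6. Tgfb3 (median 16.1), Tgfb2 (16.0), Bmp4 (14.5), Fst (11.5), Inhbb (9.91), Bmp2 (8.27), Inhba (6.32), Grem1 (2.89) and Gdf10 (2.15) followed. The ranges of all neighbours in this order overlapped. Grem1 spanned 0.690 to 172 on this scale, so it was the most abundant of the 10 in Zfp750_KO 1M and 2M and the least abundant in controls 4M and 7F and in Zfp750_KO 3F. Gdf10 had the lowest level in the other 4 libraries.

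Genes whose pattern over the 7 libraries was most like that of Grem1 were sought by the root-mean-square difference of centred log2 values. The nearest were Crabp1, a retinoic acid binding protein and dermal papilla marker, at 0.29, the matrix glycoprotein Tnc, at 0.53, the collagen Col25a1, at 0.71, Tnn, at 0.71, and the anchoring fibril collagen Col7a1, at 0.75, where the SD of Grem1 itself was 3.18. Crabp1 had normalized counts of 153 (4F), 13.1 (4M) and 20.2 (7F) among controls and 4338 (1M), 1937 (2M), 22.5 (3F) and 43.4 (6F) among knockouts. For Gdf10, with an SD of 1.09, the nearest were the aminopeptidase Enpep, at 0.18, the basement membrane collagen Col4a4, at 0.20, the predicted genes Gm42981 and Gm43508, at 0.24 each, and the potassium channel Kcnn3, at 0.26.

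The rest of the pathway was followed in 7 lists, which hold 104 further tested genes. These lists too were chosen with earlier results of these data known. With the macrophage score held, 5 of these rose and 3 fell, or 7.69%, where 3.89% of all genes were called. In 8 of the 104 the groups did not overlap, also 7.69%, where 7.1% of all genes did not. Skil, Tgif1 and Runx2 were above all controls in every knockout, and Ltbp4, Smad3, Chrdl2, Atoh8 and Alpl below, these being named after their values were seen. With the group term alone none passed. Among other ligands none of 12 tested passed. Bmp7 had a log2 difference of -0.62 ± 0.22 (SE) and Bmp3 of 1.09 ± 0.52, these being the members of that list with the highest means.

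Of 14 genes that hold TGF-betas latent or activate them, 1 passed, or 7.14%, where 3.89% of all genes were called. Ltbp4, a latent TGF-beta binding protein of elastic fibres, fell by 1.35 ± 0.22 (log2, SE), at an adjusted p of 0.0134. Its mean was 9857 ± 2842 normalized counts over controls (SD, n = 3) and 3827 ± 1175 over knockouts (SD, n = 4). Every knockout was below every control, with 13129.9 (4F), 8422 (4M) and 8018 (7F) among controls and 4981 (1M), 3929 (2M), 2197 (3F) and 4199 (6F) among knockouts. The call was lost without control 4M (adjusted p = 0.0778) and without control 7F (adjusted p = 0.0750). Fibrillin 1 (Fbn1) had a difference of -0.62 ± 0.33 and thrombospondin 1 (Thbs1), an activator of latent TGF-beta, of 0.46 ± 0.26.

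Among 13 receptors and coreceptors 1 passed, or 7.69%, where 3.89% of all genes were called. Rgmb, a BMP coreceptor, fell by 0.62 ± 0.13 (log2, SE, adjusted p = 0.0345), and it kept the call only without control 4F among the 7 fits without 1 library. The receptors with the highest levels, Tgfbr2 and Tgfbr3, were at -0.068 ± 0.22 and -0.058 ± 0.21. None of 17 SMADs and cofactors passed. Ski and Skil, which repress SMAD-driven transcription, were at -0.21 ± 0.14 and 0.54 ± 0.16. Skil is also a target of TGF-beta signalling, and its levels were higher in every knockout than in any control, at 2729 ± 314 (SD, n = 3) and 3969 ± 552 (SD, n = 4), with an adjusted p of 0.117. Of 17 other antagonists 1 passed: Bmper, a secreted BMP binding protein, fell by 1.07 ± 0.19 (adjusted p = 0.0170), and lost the call without control 4M, control 7F or Zfp750_KO 2M, with adjusted p-values of 0.0534 to 0.110. Fstl1 and Dcn, the members of that list with the highest means, were at -0.16 ± 0.35 and -0.68 ± 0.27.

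Of 25 target genes of TGF-beta and activin 4 rose and none fell, where 1.56% of all genes were called higher and 2.33% lower. The median log2 difference was 0.51 against 0.020 over all genes tested. The most abundant targets, the fibrillar collagens, had differences of the other sign, -1.41 ± 0.79 for Col1a1 (SE, adjusted p = 0.414) and -0.76 ± 0.64 for Col3a1 (adjusted p = 0.615). In the 4 libraries with high macrophage scores Col1a1 fell by 2.35 ± 0.61 (adjusted p = 0.0265) and Col3a1 by 1.78 ± 0.43 (adjusted p = 0.0198). Both collagens were singled out after their values were seen. The summed level of the list was 70042 to 126261 per M in controls and 22178 to 101231 in Zfp750_KO. Tagln, an actin-binding protein of contractile cells, rose by 2.22 ± 0.14 (log2, SE, adjusted p = 0.00136). Acta2, smooth muscle actin, rose by 1.53 ± 0.16, and both passed in all 7 fits without 1 library. With the fibroblast score in place of the macrophage score Acta2 did not pass (adjusted p = 0.100). Tagln had normalized counts of 799 (4F), 123 (4M) and 93.3 (7F) among controls and 2375 (1M), 2218 (2M), 321 (3F) and 409 (6F) among knockouts. The highest values were those of 1M and 2M, and control 4F exceeded 3F and 6F. Ccn4, a matricellular protein, rose by 1.89 ± 0.38 (adjusted p = 0.0274), and Snai2, a transcription factor of mesenchymal cells, by 1.25 ± 0.28 (adjusted p = 0.0413). Ccn4 passed in 2 of the 7 fits without 1 library, those without control 4F and without Zfp750_KO 3F, and Snai2 in none. Tagln and Acta2 are also markers of mural cells and stand in that marker list. Summed over its 14 genes, endothelial and mural markers were at 346 to 640.3 per M in controls and at 459 to 1161 in Zfp750_KO. Tagln and Acta2 are themselves in that sum, with Acta2 at 188 of 640.3 per M in control 4F and 294 of 1073 in Zfp750_KO 1M. With the macrophage score held, 4 of its 14 genes rose, 9 did not pass and Tek fell. Those that rose, Tagln, Acta2, Myh11 (1.28 ± 0.18, log2, SE) and Mcam (1.10 ± 0.24), are all mural markers. The other mural markers, Rgs5 and Cspg4, had differences of the same sign, 1.18 ± 0.31 and 0.48 ± 0.17. The endothelial markers did not move as one. Tek had a difference of -1.44 ± 0.27 (adjusted p = 0.0201) and Kdr of -0.22 ± 0.36. The other endothelial markers had positive differences that did not pass, the largest 2.31 ± 0.55 for Flt1 (adjusted p = 0.0550). The part of these markers in the result was not tested.

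BMP target genes gave 1 call in 15, or 6.67%, where 3.89% of all genes were called. Runx2, a transcription factor of bone and mesenchymal cells, rose by 0.74 ± 0.13 (log2, SE), at an adjusted p of 0.0177. Its normalized counts were 332 ± 29.6 over controls (SD, n = 3) and 557 ± 69.0 over knockouts (SD, n = 4), and every knockout lay above every control. The call was lost in 4 of the 7 fits without 1 library, those without control 4M or 7F or Zfp750_KO 1M or 2M, with adjusted p-values up to 0.0961. Id3, an inhibitor of helix-loop-helix factors, was at -0.66 ± 0.18 (adjusted p = 0.0901), and the inhibitory SMAD gene Smad7 at 0.60 ± 0.14 (adjusted p = 0.0550). The median of the list was -0.19. Besides Runx2, 1 gene above all controls in every knockout, the list held 2 below all controls, Atoh8 and Alpl. Over all genes tested 7.1% separated the groups in either direction.

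**Figure D4:**
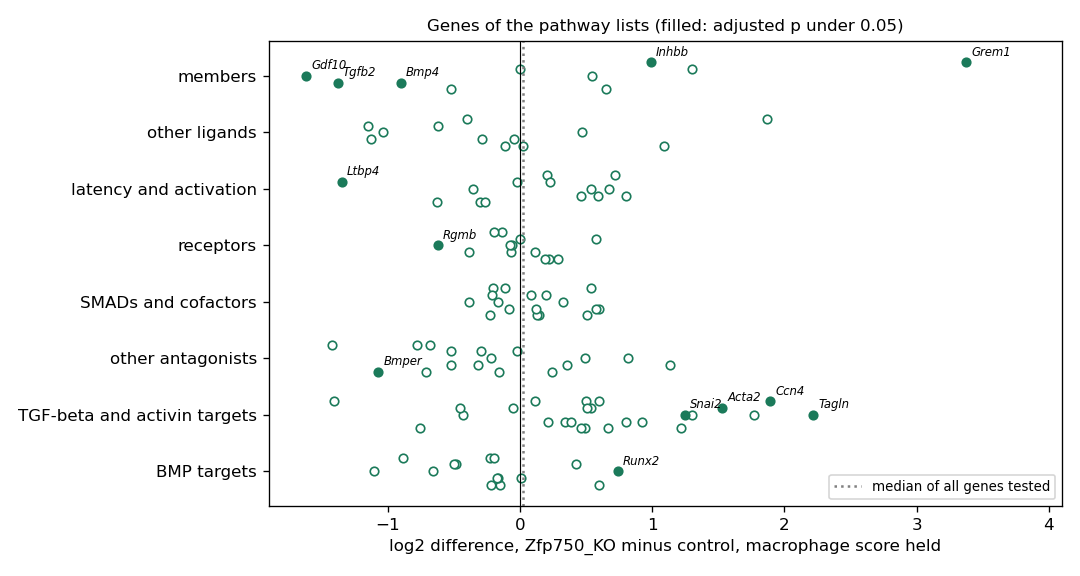
Log2 differences between Zfp750_KO and control with the macrophage score held (horizontal axis), 1 circle per tested gene in each pathway list, where genes in more than 1 list are drawn in each. Named filled circles passed an adjusted p of 0.05: 5 of the 10 members and 8 other genes, with the 4 called targets of TGF-beta and activin all to the right of 0.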

How the data were processed

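The file the authors deposited holds 1 signal per gene and library, called normalized counts in its name, for 25322 genes. The values were already scaled and are not raw counts. Per the submitters' processing notes, TopHat2 2.1.0 and Partek 9.0.20.0202 were used. Genome build, kind of normalization and strand setting were not given in the sources used here, so the table's positions were not used. Columns were assigned to groups by their names. Of values under 200 reads, 78.0% to 79.6% were whole multiples of 1 step per library within 0.02 reads, and count tests were therefore not run. Values were analysed as log2(value + 11.9), a pseudocount of 1 per M of the median column total, which understates the change of low genes. Genes at 1 per M in at least 3 libraries were tested with limma 3.58.1 in R 4.3.3, with lmFit, eBayes with a trend and Benjamini-Hochberg adjustment at 0.05. The fits were first run on simulated data in which the libraries did not differ in cell content. That run cannot show how the score-held fit behaves where they do differ. The second fit added the macrophage score, leaving 4 residual degrees of freedom. Ratios were tested by exact permutation in scipy 1.17.1. Named genes are the 10 members and, per pathway list, up to 8 called genes, with the 2 of highest mean added where fewer than 2 passed. The members, lists and tests were chosen with earlier results of these data known, and the interaction with sex and the separation within 4 libraries were added after the data were seen. Alternatives were other pseudocounts, filters, scalings, moderation, weights and covariates, and leaving out each library.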

Additional observations from a re-analysis of the deposited data

How the results depend on the processing

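Pseudocounts of 0.5 and 5 per M, other filters, other scalings, robust moderation, a sex term and leaving out any 1 library left no gene called with the group term alone. Array weights gave 1883 genes higher and 1912 lower, the fibroblast score 371 and 215, and the 4 libraries with high macrophage scores 882 and 1207. With the macrophage score held, 283 genes were higher and 423 lower. Array weights gave 515 and 744 and the sex term 553 and 750. The fibroblast score, in place of the macrophage score, gave 371 and 215. It is the same fit as the one listed under the group term, and it counts among the alternatives of both. Leaving out 1 library gave 65 to 620 higher and 111 to 988 lower. The fewest came without control 4M and the most without control 4F. The causes were not tested. Among the 10 genes, Gdf10 kept its direction and its call in all 17 alternatives of the score-held fit, Tgfb2 and Grem1 kept the direction in 17 and the call in 14, Bmp4 the call in 11 and Inhbb in 8. With the group term alone, signs turned under array weights for Bmp2 (0.20), Bmp4 (0.0045), Fst (0.43), Bmp7 (0.54), Tgfbr2 (0.33), Tgfbr3 (0.47), Ski (0.025), Dcn (0.68), Fstl1 (0.59) and Id3 (0.14). In the 4 libraries with high macrophage scores they turned for Tgfb3 (-0.84) and Bmp3 (-0.58). With the fibroblast score the signs turned, from either fit, for Fst (0.27), Tgfbr2 (0.088), Tgfbr3 (0.12) and Fstl1 (0.13). With the macrophage score held, Fst was at 0.0015 and 0.0053 with the pseudocounts of 0.5 and 5 per M and at 0.0081 with equal totals. Leaving out 1 library with the group term alone gave -0.16 to 0.93 for Tgfb3, -0.41 to 0.27 for Fst, -0.33 to 0.077 for Tgfbr2, -0.33 to 0.10 for Tgfbr3 and -0.60 to 0.12 for Fstl1. With the score held it gave -0.17 to 0.85 for Tgfb3, -0.81 to 0.37 for Fst, -0.32 to 0.11 for Tgfbr2, -0.34 to 0.075 for Tgfbr3 and -0.72 to 0.067 for Fstl1. It gave -0.091 to 0.68 for the ratio of Bmp2 to Bmp4 and -1.08 to 0.40 for that of Tgfb3 to Tgfb1. No paired analysis was possible because the columns carry none of the replicate numbers of the labels. Depth limits Grem1 in control 4M, at 26 reads, and Gdf10 in Zfp750_KO 1M and 2M, at 34 and 36 reads.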
